A study of Homo sapiens with 4 samples.

Results

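The Fanconi anemia repair genes were followed in K562 cells given SF1-8 or DMSO. Members were the entries of the deposited gene table whose KEGG annotation held the Fanconi anemia pathway, leaving out those also annotated to DNA replication or to an entry named Cell cycle. This gave 48 of the 64873 entries. Of 53 pathway entries, 4 were left out for DNA replication (RPA1, RPA2, RPA3 and RPA4) and 1 for Cell cycle (ATR). All 48 passed the filter on low counts. K562 is an established human erythroleukemia line, and every library came from K562 cells that overexpressed U2AF1 S34F, a mutant of the small subunit of the splicing factor U2AF that binds the 3′ end of introns. SF1-8 is a small molecule made against the UHM domain of U2AF1. The 2 DMSO libraries (DMSO 1 and DMSO 2) and the 2 SF1-8 libraries (SF1-8 1 and SF1-8 2) were taken after 48 h, the latter with 30 µM of the compound, and total RNA was sequenced after removal of ribosomal RNA. Cells without the U2AF1 S34F transgene were not analysed here, so all values below belong to cells that carry it. The labels do not say whether the libraries came from separate cultures, so p-values measure only the spread between these samples.

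The Fanconi anemia pathway repairs interstrand crosslinks, lesions that tie both DNA strands together and stop replication forks. An anchor complex around FANCM recognises the stalled fork and recruits the core complex, in which the ubiquitin ligase FANCL works with the conjugating enzyme UBE2T to place a single ubiquitin on FANCI and FANCD2. Nucleases gathered by SLX4 then cut beside the crosslink, translesion polymerases copy past the lesion, and homologous recombination with BRCA1 and BRCA2 restores the broken strand. Inherited loss of these genes causes bone marrow failure and a risk of leukemia, and many of them are transcribed mostly in cells that are about to copy their DNA.

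Because the pathway is tied to the cell cycle, the 250 bases before the transcription start of the members were read from RefSeq (GRCh38.p14), which matched 44 of the 48. FANCI and RMI2 were among those not matched. Letters of an E2F element (TTTCCCGC, TTTCGCGC, TTTGCCGC or TTTGGCGC on either strand) were held by 6 of the 44, or 13.6%, against 2.77% of all 34943 promoters of the same length. These 6 were FANCA, FANCC, PMS2, POLI, SLX1A and SLX1B. Letters of a cell cycle homology region (TTTGAA or TTCGAA, either strand) were held by 5 of the 44 (BRIP1, EME2, FAAP24, FANCC and UBE2T), or 11.4%, against 14.4% of all promoters. CCAAT on either strand, the letters of the NF-Y element, was in 17 of the 44, or 38.6%, against 32.0%. The members' promoters had a median GC content of 64.4%, against 58.0% over all promoters, and the E2F letters are rich in G and C. No motif overlapped another in the sequences printed here. A match describes letters only and is not a bound site.

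The promoters of 4 members are shown because they hold these letters and belong to genes whose values are described in detail below, namely FANCA and FANCC of the core complex, the conjugating enzyme UBE2T, and the nuclease subunit SLX1A. Each is written 5′ to 3′ on the strand of the gene. Capitals mark the motif letters, and an element on the opposite strand appears as its reverse complement. FANCA (chr16:89816648-89816897, minus strand) has E2F letters at position -172 and CCAAT at -33, counted from the start to the first printed base of the match. FANCC (chr9:95317710-95317959, minus strand) has E2F letters at -172 and -46 and the cell cycle letters at -248. UBE2T (chr1:202341937-202342186, minus strand) has the cell cycle letters at -153 and CCAAT at -124 and -73. SLX1A (chr16:30193593-30193842, plus strand) has E2F letters at -64 and CCAAT at -42. The window of its copy SLX1B (chr16:29454283-29454532) shares a run of 218 bases with it and is therefore not printed.
FANCA: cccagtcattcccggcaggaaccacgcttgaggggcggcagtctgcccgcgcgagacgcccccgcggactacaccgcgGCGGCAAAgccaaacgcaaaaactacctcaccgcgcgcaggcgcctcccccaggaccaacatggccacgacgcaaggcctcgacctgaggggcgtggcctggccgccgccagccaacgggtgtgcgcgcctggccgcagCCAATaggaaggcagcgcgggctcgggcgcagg
FANCC: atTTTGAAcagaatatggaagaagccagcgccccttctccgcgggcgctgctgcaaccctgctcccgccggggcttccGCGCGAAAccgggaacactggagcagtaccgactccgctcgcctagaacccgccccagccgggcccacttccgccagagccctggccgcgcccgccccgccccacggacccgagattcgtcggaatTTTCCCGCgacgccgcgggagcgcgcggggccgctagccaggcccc
UBE2T: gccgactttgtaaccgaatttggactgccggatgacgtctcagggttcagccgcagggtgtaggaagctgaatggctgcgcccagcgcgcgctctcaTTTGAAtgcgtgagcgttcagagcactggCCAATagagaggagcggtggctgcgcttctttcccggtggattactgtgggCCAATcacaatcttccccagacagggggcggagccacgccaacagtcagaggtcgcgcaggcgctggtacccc
SLX1A: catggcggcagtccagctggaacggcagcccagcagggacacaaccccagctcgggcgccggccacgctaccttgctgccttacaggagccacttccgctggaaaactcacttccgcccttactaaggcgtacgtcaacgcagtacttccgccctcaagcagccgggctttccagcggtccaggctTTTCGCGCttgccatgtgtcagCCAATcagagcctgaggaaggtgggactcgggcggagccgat

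In the comparison of SF1-8 with DMSO, which asks whether repair gene RNA differed after 48 h of the inhibitor, no member passed the test. In the quasi-likelihood test of edgeR, 0 of 48 members had an adjusted p (Benjamini-Hochberg, over all entries tested) under 0.05, beside 11 of all 26167 entries tested (0.0420%). At an unadjusted p under 0.05 the count was also 0 of 48, beside 1132 entries (4.33%), and 0 members were called in each of the 12 alternative settings. The smallest unadjusted p of a member was 0.0668 (RAD51C), and adjusted p-values of the members ran from 0.970 to 0.999 (edgeR). The log2 fold changes lay between -0.27 and 0.44. Of these, 23 were above 0 and 25 below, so 52.1% were below 0, beside 51.6% of all entries tested and 39.2% of 9168 entries with a protein-coding transcript and a mean FPKM of at least 1. Their median was -0.0073 on the log2 scale, beside -0.011 over all entries and 0.031 over those protein-coding entries.

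The intervals show which changes in the level of a whole gene entry these 4 libraries would leave room for. Isoforms within an entry were not analysed here. The 95% interval of the log2 fold change lay within 0.5 of 0 for 34 of the 48 members (70.8%), beside 26.4% of all entries and 68.6% of the protein-coding entries above. It lay within 1 of 0, a 2-fold change, for 46 members (95.8%, beside 45.9% and 92.5%). FANCB and FAAP24 were the exceptions. Standard errors ran from 0.069 to 0.57 with a median of 0.11.

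**Figure D1:**
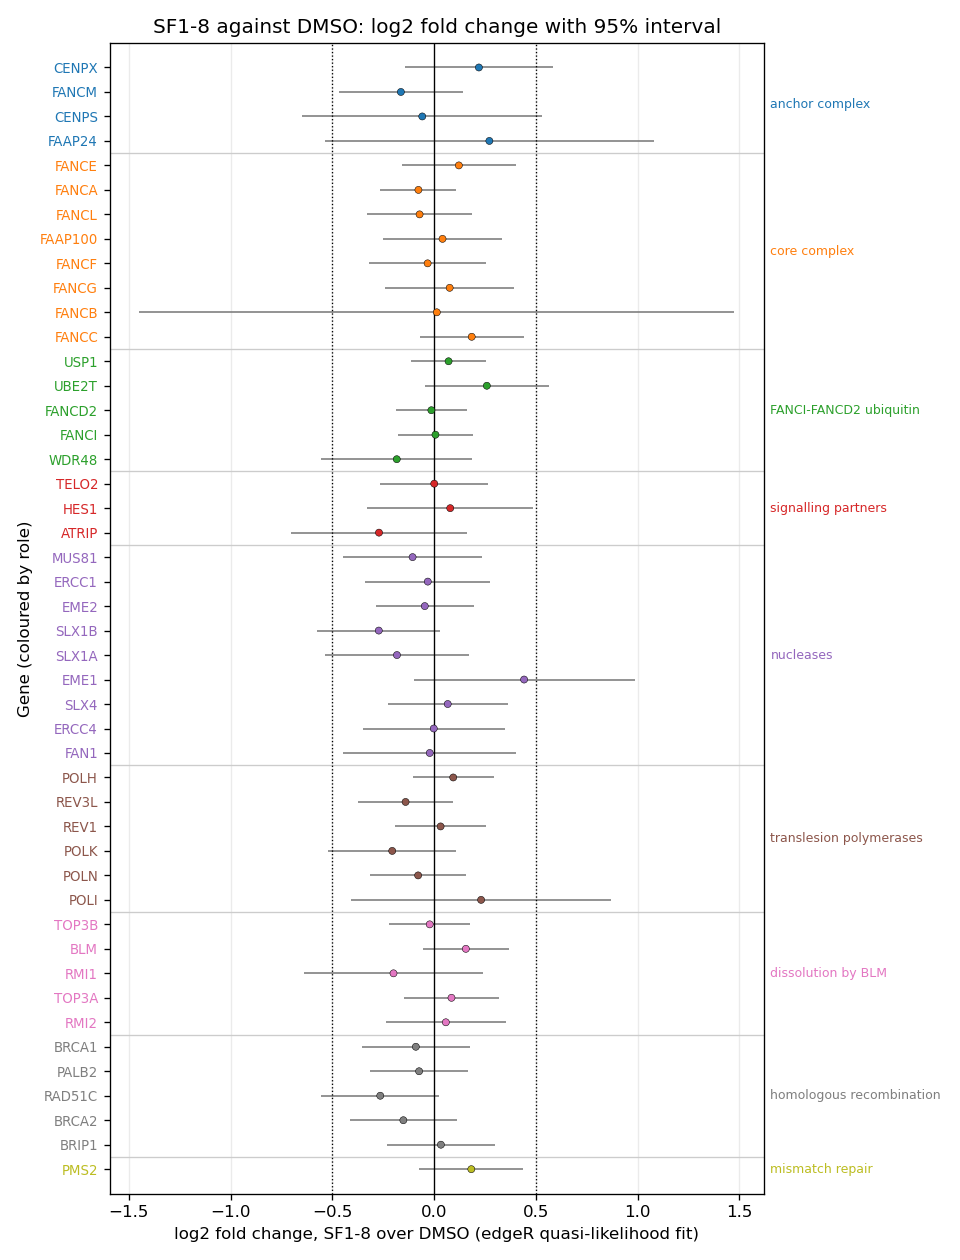
Log2 fold change of 46 members, SF1-8 over DMSO, on the horizontal axis (points, edgeR fit; bars, 95% intervals; dotted lines at -0.5 and 0.5), with genes grouped and coloured by role on the vertical axis. Every interval includes 0, and those of FANCB and FAAP24 are the ones that pass beyond 1.

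The members' own levels, given as FPKM (fragments normalized for the length of the entry and the depth of the library, so levels of different genes can be set side by side), spanned from 0.456 to 31.3 as means over the 4 libraries, with a median of 5.05. USP1 (31.3), CENPX (22.0), TOP3B (13.6), TELO2 (13.0), UBE2T (11.7), FANCD2 (11.4) and BLM (10.6) were the 7 members at 10 or more. ERCC4 (1.66), FAN1 (1.64) and POLI (0.456) were the 3 under 2. All members together summed to 305 and 304 FPKM in the DMSO libraries and to 299 and 308 in the SF1-8 libraries, so the groups overlapped in this sum. As a share of each library's counts they took 0.258% and 0.251% in DMSO and 0.241% and 0.249% in SF1-8, where both SF1-8 libraries were the lower ones.

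**Figure D2:**
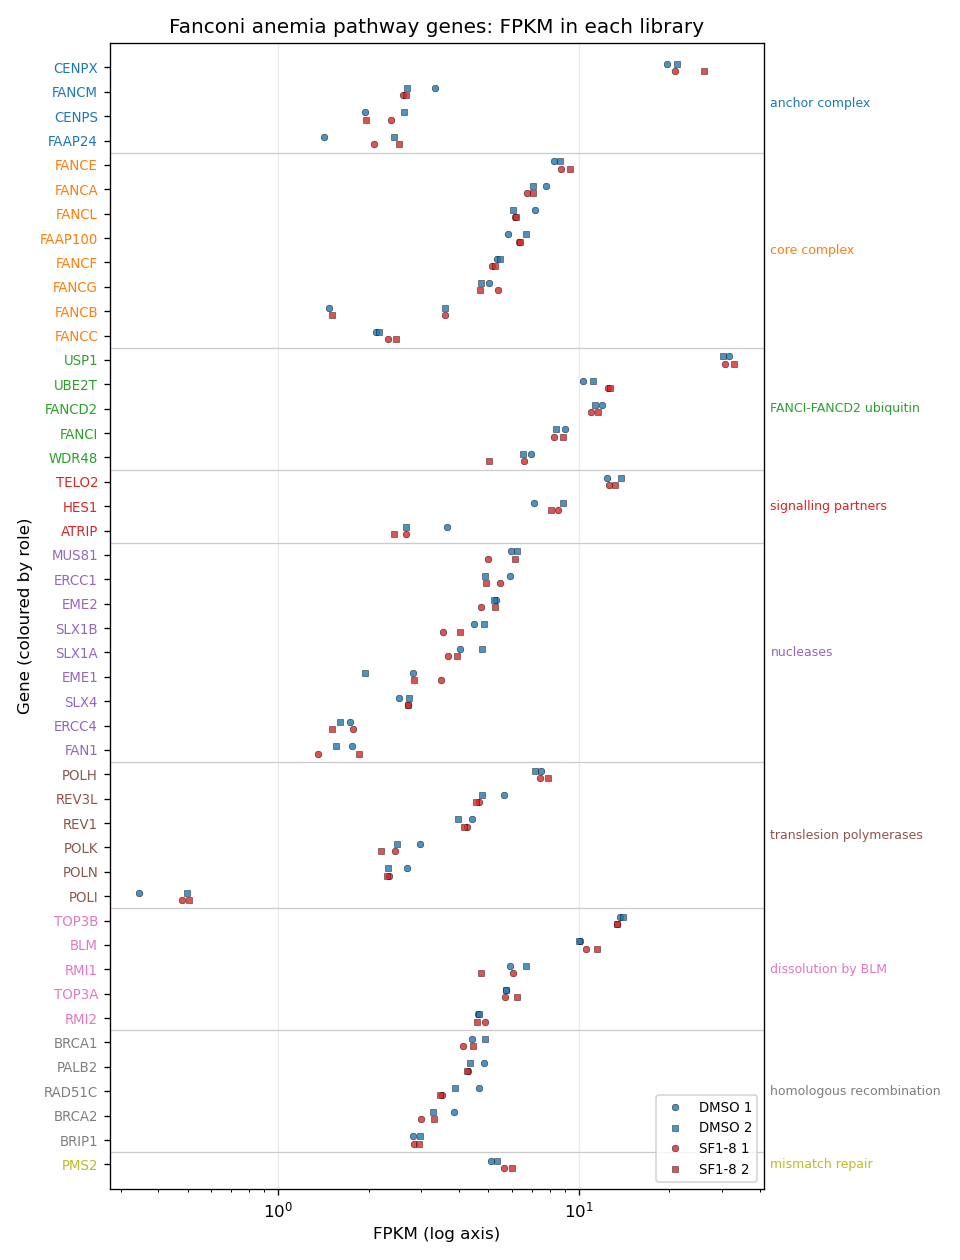
FPKM of 46 members in each library on a log axis (blue, DMSO; red, SF1-8; circles, replicate 1; squares, replicate 2), with genes grouped by role and ordered by mean. USP1 lies highest and POLI lowest, and in FANCB each group holds a low library (1.48 in DMSO, 1.51 in SF1-8) and a high one (3.60 and 3.58).

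The order of the libraries was also compared without a test. In FPKM, 6 members were higher in both SF1-8 libraries than in both DMSO libraries (BLM, EME1, FANCC, FANCE, PMS2 and UBE2T), or 6 of 48 where 14.2% of all entries had this order. Another 11 were lower in both (among them FANCA, FANCF, FANCM, PALB2, POLK, RAD51C, REV3L, SLX1A, SLX1B and TOP3B), where 20.0% of all entries had it, and 31 members overlapped. With TMM-normalized counts the numbers were 8 higher (17.3% of all entries) and 9 lower (18.1%). USP1 and POLH joined the higher ones, BRCA2 joined the lower ones, and FANCF, SLX1A and TOP3B left them.

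The anchor complex, which binds the branched DNA at a stalled fork, had 4 members with a median log2 fold change of 0.081. FANCM, the translocase of the complex (chr14:45135930-45200890, hg38), had FPKM of 3.33 and 2.70 in DMSO and 2.61 and 2.66 in SF1-8. Both SF1-8 libraries lay just below the lower DMSO library, and the log2 fold change was -0.16 (SE 0.120, 95% interval -0.47 to 0.14). It was -0.046 without DMSO 1 and -0.27 without DMSO 2. FAAP24, the DNA-binding partner of FANCM (chr19:32972209-32977933), had 1.42 and 2.42 in DMSO and 2.08 and 2.52 in SF1-8. DMSO 1 stood below the other 3 libraries, the groups overlapped, and the log2 fold change of 0.27 (SE 0.317, interval -0.54 to 1.08) became -0.088 without DMSO 1. CENPX, a histone-fold subunit (chr17:82018702-82024107), had 19.6 and 21.3 in DMSO and 20.9 and 26.1 in SF1-8. The higher mean in SF1-8 came with an overlap of the groups, and the log2 fold change was 0.22 (SE 0.142, interval -0.14 to 0.58). Leaving out SF1-8 2 gave 0.064, DMSO 1 0.13, DMSO 2 0.33 and SF1-8 1 0.37. Its histone-fold partner CENPS, in an entry that also names CORT and the CENPS-CORT readthrough, ranged from 1.95 to 2.63 with overlapping groups.

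The core complex is the ubiquitin ligase of the pathway, and 8 of its 9 listed genes were members. FAAP20, the remaining one, shares an entry with PRKCZ-AS1 that is not annotated to the pathway. The 8 had a median log2 fold change of 0.028, with 5 above 0 and 3 below. FANCA, the largest subunit and the gene most often mutated in Fanconi anemia (chr16:89737549-89816657), had FPKM of 7.80 and 7.05 in DMSO and 6.76 and 7.03 in SF1-8. The groups were separated by the step from 7.05 to 7.03, and the log2 fold change was -0.077 (SE 0.0732, interval -0.26 to 0.11). It was -0.044 without DMSO 1 and -0.051 without SF1-8 1. FANCC, which forms a subcomplex with FANCE and FANCF (chr9:95099054-95317709), had 2.11 and 2.16 in DMSO and 2.32 and 2.47 in SF1-8. Here both SF1-8 libraries were the higher ones, with a log2 fold change of 0.19 (SE 0.10, interval -0.07 to 0.44) and an unadjusted p of 0.123 by edgeR. Its partners FANCE (8.26 and 8.65 in DMSO, 8.74 and 9.34 in SF1-8) and FANCF (5.35 and 5.48 in DMSO, 5.15 and 5.26 in SF1-8) also had groups that did not overlap, but in opposite order. FANCL, the subunit with ligase activity (chr2:58159243-58241325), had 7.14 and 6.05 in DMSO and 6.12 and 6.18 in SF1-8. DMSO 1 was the highest library and the SF1-8 libraries lay within the DMSO range, with a log2 fold change of -0.071 (SE 0.10, interval -0.33 to 0.18) that turned to 0.011 without DMSO 1. The scaffold FANCG ranged from 4.71 to 5.39 and FAAP100, which binds FANCB and FANCL, from 5.84 to 6.70, both with overlapping groups.

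FANCB, which holds FANCL and FAAP100 in the core complex (chrX:14835961-14873069), stood apart from the other members by its spread and is described because of that, a choice made after its values were seen. FPKM were 1.48 (DMSO 1) and 3.60 (DMSO 2) without the compound and 3.58 (SF1-8 1) and 1.51 (SF1-8 2) with it, from 949, 3232, 3321 and 1354 estimated counts. One library of each group was thus at the lower level and one at the higher, with no order between DMSO and SF1-8. The log2 fold change was 0.014 with a standard error of 0.574 and an interval from -1.45 to 1.48, the widest among the members. A difference of 2-fold or more between the libraries of both groups was found in 1 of 48 members, and in 246 of 14086 entries with a mean FPKM of at least 1 (1.75%). Among the other 47 members, the larger over the smaller FPKM within a group had a median of 1.11 in DMSO, with a largest value of 1.71 (FAAP24), and a median of 1.07 in SF1-8, with a largest value of 1.36 (FAN1).

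**Figure D3:**
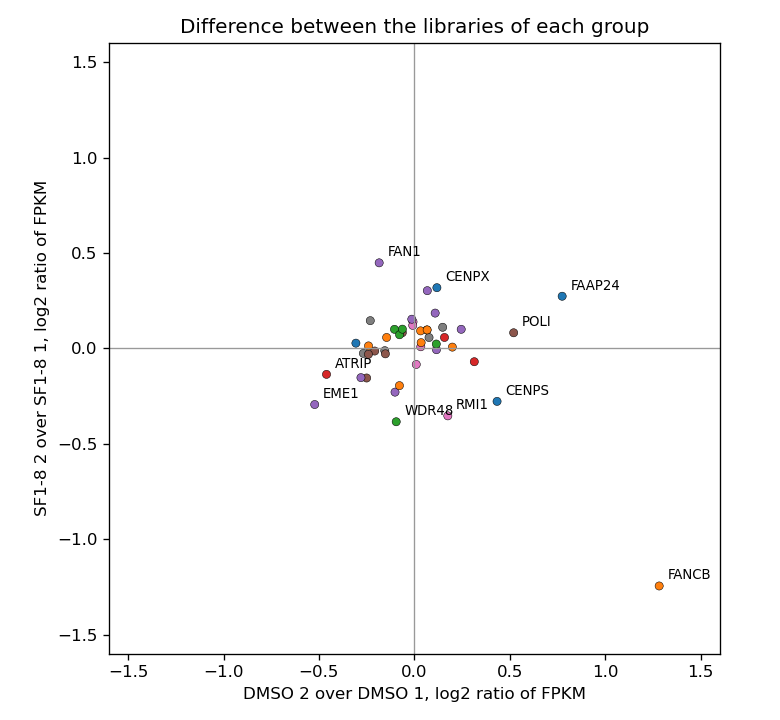
Difference between the libraries of each group for 46 members, as the log2 ratio of FPKM in DMSO 2 over DMSO 1 (horizontal) and SF1-8 2 over SF1-8 1 (vertical), coloured by role. Most members lie near the origin, while FANCB lies in the lower right corner, with its higher library being DMSO 2 in one group and SF1-8 1 in the other.

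Monoubiquitination of FANCI and FANCD2, the switch of the pathway, was represented by 5 members with a median log2 fold change of 0.0069. FANCD2 (chr3:10026414-10101930) had FPKM of 11.9 and 11.3 in DMSO and 11.0 and 11.6 in SF1-8, and its partner FANCI (chr15:89243945-89317261) had 9.03 and 8.40 in DMSO and 8.29 and 8.88 in SF1-8. Both genes had overlapping groups. Their log2 fold changes were -0.013 (SE 0.0690, interval -0.19 to 0.16) and 0.0069 (SE 0.0716, interval -0.18 to 0.19). This leaves little room for a change in the RNA level of either whole entry, up or down. A switch between isoforms within an entry need not show in these values. UBE2T (chr1:202331657-202341970), the E2 enzyme whose promoter is printed above, had 10.3 and 11.2 in DMSO and 12.6 and 12.8 in SF1-8. The groups did not overlap, and the gap between them was wider than the difference within either group. Its log2 fold change of 0.26 (SE 0.120, interval -0.05 to 0.56) gave an unadjusted p of 0.0809 and an adjusted p of 0.970 by edgeR, and was 0.17 without DMSO 1. USP1, the protease that removes the ubiquitin (chr1:62436297-62451804), had 31.5 and 30.2 in DMSO and 30.7 and 32.9 in SF1-8, with a log2 fold change of 0.071 (SE 0.0723, interval -0.11 to 0.26). Leaving out SF1-8 2 gave 0.031 and SF1-8 1 0.12. The USP1 cofactor WDR48 had 6.96 and 6.51 in DMSO and 6.58 and 5.04 in SF1-8, where SF1-8 2 was the low library and the groups overlapped.

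The signalling list had 3 of its 4 genes among the members, ATR being left out by the rule, and a median log2 fold change of 0.00087. ATRIP, which brings the ATR kinase to single-stranded DNA (chr3:48446710-48467645), shares its entry with the exonuclease gene TREX1. The entry had FPKM of 3.66 and 2.66 in DMSO and 2.67 and 2.43 in SF1-8. DMSO 1 was high and the other 3 libraries close together, with a log2 fold change of -0.27 (SE 0.169, interval -0.70 to 0.16). Without DMSO 1 this became -0.068. TELO2, a chaperone partner of such kinases, ranged from 12.4 to 13.8 and HES1, a transcriptional repressor of the Notch pathway, from 7.13 to 8.86. Both had overlapping groups.

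The nucleases and their scaffold unhook the crosslink by cutting on either side of it. Among 9 members, 2 had a log2 fold change above 0 and 7 below, with a median of -0.031. Over all entries tested 51.6% were below 0, and 39.2% of the protein-coding entries with a mean FPKM of at least 1. With so few genes in a role, such a count is a description only. EME1 (chr17:50373220-50381483), the partner of MUS81, had the largest positive value of all members. Its FPKM was 2.80 and 1.95 in DMSO and 3.48 and 2.84 in SF1-8, so the groups were separated only by the step from 2.80 to 2.84. The log2 fold change was 0.44 (SE 0.213, interval -0.10 to 0.99), with an unadjusted p of 0.0908 and an adjusted p of 0.970 by edgeR. Leaving out DMSO 2 gave 0.24, SF1-8 1 0.28 and DMSO 1 0.68. In the same role, MUS81 ranged from 4.99 to 6.24 and its other partner EME2 from 4.75 to 5.30, both with overlapping groups, so the entries of this nuclease did not share an order. SLX1B, a catalytic subunit that works on SLX4 (chr16:29454501-29464963), had 4.48 and 4.83 in DMSO and 3.54 and 4.03 in SF1-8. Both SF1-8 libraries were the lower ones, and the log2 fold change of -0.27 (SE 0.119, interval -0.57 to 0.03) gave an unadjusted p of 0.0695 by edgeR, and was -0.17 without DMSO 2. Its copy SLX1A had 4.02 and 4.77 in DMSO and 3.68 and 3.95 in SF1-8, the same order by a narrow margin. The coding sequences of SLX1A and SLX1B are 825 bases each with 0 mismatches (GENCODE v29), so reads from that part cannot be told apart. The rest of the entries was not compared. With the pair counted once, 6 of 8 nucleases were below 0 and 2 above. In FPKM 10 of 47 members were then lower in both SF1-8 libraries, beside 20.0% of all entries. The E2F letters were held by 5 of 43 promoters (11.6%), beside 2.77% of all promoters. The entries also name SULT1A3 and SULT1A4. SLX4, the scaffold (chr16:3581181-3611606), had 2.52 and 2.73 in DMSO and 2.71 and 2.70 in SF1-8, with a log2 fold change of 0.067 (SE 0.115, interval -0.23 to 0.36) that turned to -0.027 without DMSO 1. ERCC4, the catalytic subunit of the XPF-ERCC1 nuclease (chr16:13920154-13952348), had 1.73 and 1.61 in DMSO and 1.77 and 1.51 in SF1-8. Its log2 fold change was -0.0014 (SE 0.137, interval -0.35 to 0.35), turning to 0.12 without SF1-8 2, and was -0.12 without SF1-8 1. ERCC1 ranged from 4.88 to 5.93, and the groups of both genes overlapped. FAN1, a nuclease that binds ubiquitinated FANCD2 (chr15:30890559-30943108), had 1.77 and 1.56 in DMSO and 1.36 and 1.86 in SF1-8. The SF1-8 libraries enclosed the DMSO libraries, and the log2 fold change was -0.021 (SE 0.167, interval -0.45 to 0.41), turning to 0.18 without SF1-8 1.

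Translesion polymerases copy across the unhooked crosslink, and the 6 members had a median log2 fold change of -0.023, with 3 above 0 and 3 below. REV1, the scaffold of these polymerases (chr2:99400475-99490035), had FPKM of 4.42 and 3.97 in DMSO and 4.25 and 4.17 in SF1-8. The SF1-8 libraries lay within the DMSO range, and the log2 fold change was 0.032 (SE 0.0884, interval -0.19 to 0.26). POLK (chr5:75511756-75601144) had 2.96 and 2.49 in DMSO and 2.44 and 2.19 in SF1-8. Both SF1-8 libraries were the lower ones, with a log2 fold change of -0.21 (SE 0.123, interval -0.52 to 0.11), or -0.12 without DMSO 1 or SF1-8 2. REV3L, the catalytic subunit of polymerase zeta, had the same order, with 5.63 and 4.76 in DMSO and 4.67 and 4.57 in SF1-8. POLH ranged from 7.17 to 7.90, POLI from 0.346 to 0.505 and POLN, in an entry shared with HAUS3, from 2.31 to 2.69, each with overlapping FPKM.

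The BLM helicase and its partners separate joined DNA molecules without crossing over. The list for this role also held TOP3B, which is not taken here as a partner of BLM. The 5 listed members had a median log2 fold change of 0.058. RMI1, the scaffold of the complex (chr9:83980798-84004074), had FPKM of 5.93 and 6.69 in DMSO and 6.06 and 4.74 in SF1-8. SF1-8 2 stood below the other 3 libraries, and the log2 fold change was -0.20 (SE 0.172, interval -0.64 to 0.24). Without SF1-8 2 it was -0.023. BLM itself had 10.1 and 10.0 in DMSO and 10.6 and 11.5 in SF1-8, with both SF1-8 libraries higher. TOP3B had 13.7 and 14.0 in DMSO and 13.4 and 13.5 in SF1-8, with both lower, while TOP3A (5.68 to 6.25) and RMI2 (4.61 to 4.88) overlapped.

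Homologous recombination genes rebuild the cut strand from the sister chromatid. Of 6 members, 1 had a log2 fold change above 0 and 5 below, with a median of -0.11, and none passed the test. Over all entries tested 51.6% were below 0, and 39.2% of the protein-coding entries with a mean FPKM of at least 1. RAD51C, a recombination mediator (chr17:58692573-58734331), had FPKM of 4.66 and 3.87 in DMSO and 3.51 and 3.45 in SF1-8. Both SF1-8 libraries were lower than both DMSO libraries, and the DMSO libraries differed from each other by more than the gap between the groups. Its log2 fold change was -0.26 (SE 0.114, interval -0.56 to 0.03), with the members' smallest unadjusted p of 0.0668 and an adjusted p of 0.970 by edgeR, and it was -0.17 without DMSO 1. BRCA2, a mediator of strand exchange (chr13:32315086-32400268), had 3.86 and 3.29 in DMSO and 2.99 and 3.31 in SF1-8. The groups overlapped in FPKM, and the log2 fold change was -0.15 (SE 0.103, interval -0.41 to 0.11), or -0.074 without DMSO 1 and -0.082 without SF1-8 1. BRCA1 (chr17:43044295-43171037), whose entry names a further locus, had 4.41 and 4.89 in DMSO and 4.13 and 4.46 in SF1-8, with a log2 fold change of -0.090 (SE 0.105, interval -0.36 to 0.18). It turned to 0.034 when DMSO 2 was left out and was -0.038 without SF1-8 1, so its place among the 5 below 0 rests on DMSO 2. The bridging protein PALB2 had 4.84 and 4.35 in DMSO and 4.30 and 4.26 in SF1-8, the lower pair in SF1-8. The helicase BRIP1 ranged from 2.80 to 2.96 with overlapping groups.

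PMS2, a subunit of a mismatch repair endonuclease, had FPKM of 5.10 and 5.34 in DMSO and 5.63 and 6.02 in SF1-8, with both SF1-8 libraries higher. PMS2 has many pseudogene copies, so its reads may be shared with them.

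Other genes that act with the pathway but lie outside the rule were read from a list of 21. Of the 20 tested, 0 passed the adjusted threshold, 9 were above 0 and 11 below, and the median log2 fold change was -0.010. RPA4 was listed at 0 in each library. FIGNL1, an ATPase of recombination repair, had FPKM of 7.23 and 6.34 in DMSO and 5.00 and 5.35 in SF1-8. It was the single gene of the list with an unadjusted p under 0.05 (log2 fold change -0.36, SE 0.10, unadjusted p 0.0146, adjusted p 0.970 by edgeR). That is 1 of the 20 tested, beside 4.33% of all entries tested. In a list of 14 proliferation markers 0 were called, the median was 0.045, and their FPKM summed to 550 and 543 in DMSO and 557 and 556 in SF1-8. Of 12 DNA damage response genes 11 were tested and 0 called, and their FPKM summed to 49.0 and 51.3 in DMSO and 50.2 and 49.7 in SF1-8. The groups overlapped in the sum of the damage list, while both SF1-8 libraries were higher in the sum of the proliferation list. In the damage list 3 genes (CDKN1A, GADD45B and FAS) were under 1 FPKM in each library. Whether the compound caused DNA damage, or whether these cells could answer it through this list, was not tested.

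The deposited totals were 45522905 in DMSO 1 and 64305922 to 67554610 estimated counts in the other 3 libraries. U2AF1 itself was similar in each library at 11.4 to 12.0 FPKM (log2 fold change 0.085, SE 0.0716), and a near-identical copy, U2AF1L5, was at 11.1 to 11.4, so the transgene's share could not be told. The 12 erythroid K562 markers, in 9 entries, were found in each library. Their FPKM summed to 365 and 360.0 in DMSO and 331 and 353 in SF1-8, both SF1-8 libraries being lower. Of the 9 entries, 8 were below 0 in log2 fold change and 1 above, beside 51.6% of all entries tested below 0. Their median was -0.051, and 0 were called. All 6 fibroblast markers were below 0 in log2 fold change. By edgeR 5 had an unadjusted p under 0.05, beside 4.33% of all entries tested, and 0 had an adjusted one. The 6 summed to 9.79 and 4.64 FPKM in DMSO and 2.27 and 0.558 in SF1-8. Among them DCN, LUM and PDGFRB were near the floor, with mean FPKM of 0.025, 0.064 and 0.023. Of the 3 endothelial markers VWF and CDH5 were listed at 0, while PECAM1 was at 1.17 and 1.08 FPKM in DMSO and 0.959 and 1.17 in SF1-8. The 3 T cell markers summed to 5.45 and 4.80 FPKM in DMSO and 3.97 and 3.85 in SF1-8, both SF1-8 libraries being lower, and of the 2 tested both were below 0 in log2 fold change and 0 were called. The 3 B cell markers summed to 0.382 and 0.353 in DMSO and 0.460 and 0.502 in SF1-8, both higher, and the 3 monocyte markers to 5.84 and 4.23 in DMSO and 4.56 and 4.41 in SF1-8, which overlapped. The part of these markers in the members' values was not tested. In these bulk samples, less RNA per cell and fewer cells of a kind cannot be told apart.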

How the data were processed

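RNA-seq libraries of K562 cells overexpressing U2AF1 S34F were compared, 2 given DMSO and 2 given SF1-8, with groups and replicate numbers from the sample labels. Cutadapt, FastQC, Bowtie2, HISAT2, StringTie and hg38 are named in the submitters' processing notes, and their versions and settings are not given in the sources used here. The authors deposited an FPKM value per entry and library, normalized for length and depth, with 0.0001 standing for 0. The authors also deposited an estimated count per entry, without normalization and in whole numbers, so no rounding changed it. An estimated count need not stand for 1 read, so no counting interval was computed. The 2095 entries that name no gene held 0.358% to 0.421% of each library's counts. They entered neither library sizes nor tests.

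Counts were fitted over all 4 libraries with edgeR 4.0.16 in R 4.3.3 (TMM factors, filterByExpr, quasi-likelihood test, Benjamini-Hochberg adjustment over 26167 entries), and the members' values were read from that fit. The scripts were tested on simulated data. Alternatives used DESeq2 1.42.0 and limma 3.58.1. Of the members, 42 entries name 1 gene and 6 name several. Further entries with the symbols of 12 members (24 in all) lack the KEGG annotation and were not counted. Some members are not reported here by name. Values in each library with fold changes are given for members with an unadjusted p under 0.05 (none), the 5 largest rises and 5 largest falls at a mean FPKM of at least 1, and defining genes of each role. The members and lists were chosen with earlier results of these data known. Promoter motifs were searched in the 250 bases before the RefSeq start.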

Additional observations from a re-analysis of the deposited data

How the results depend on the processing

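The members called stayed at 0 in all 12 alternatives, with the lowest adjusted p of a member at 0.620 (without DMSO 2). Over all entries, 11 were called as reported, 164 by DESeq2 and 31 with no filter on low counts. With limma on FPKM 0 were called, for either pseudocount and without the filter, and 1 after rescaling to TPM, a setting chosen after seeing the data. The replicate block called 0. Leaving out 1 library each gave 0 (without DMSO 1) to 30 entries called (21 without DMSO 2, 30 without SF1-8 1, 28 without SF1-8 2), with the lone library assumed to vary like the others. Same-numbered libraries did not deviate together (r = 0.016 across 26167 entries, which are not independent replicates). With a single difference per group, this cannot tell whether the numbers pair the libraries. The block moved the members' median from -0.0073 to -0.010. At an unadjusted p under 0.05 the block gave 1 of 48 members (EME1), beside 3.71% of all entries in that fit, and limma on FPKM 1 (UBE2T), beside 4.72% to 5.82%. Leaving out DMSO 1 gave 2 (4.82% of entries), DMSO 2 3 (7.96%), SF1-8 1 1 (4.13%) and SF1-8 2 0 (3.58%). The members' median ran from -0.035 to 0.00045 over the other tools, scalings and filters, from -0.039 to 0.022 over the libraries left out, and was -0.013 without FANCB and 0.010 for entries naming 1 gene. Rescaling to TPM gave a median of -0.16, where the median of all entries was -0.14, and turned the sign of 16 members.

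Of the 24 genes compared, 13 kept their direction in every setting, or 15 with the TPM rescaling left out. Of all values 24 reversed and 264 did not, none of them past the adjusted threshold. The rescaling gave 5 of the 24, and 4 of those 5 kept their sign once the median of all entries was subtracted. ERCC4 was 0.0019 with DESeq2 and 0.0064 without the filter. FANCI was -0.0086 with upper-quartile factors, -0.019 with limma at a pseudocount of 1 (with and without the filter) and -0.021 at 0.1, and FANCB was -0.00068 with upper-quartile factors. After rescaling to TPM, FANCI was -0.15, USP1 -0.091, SLX4 -0.084, REV1 -0.12 and FANCB -0.11. With libraries left out, the log2 fold change ran from -0.74 to 0.86 for FANCB, -0.088 to 0.77 for FAAP24, -0.14 to 0.011 for FANCL, -0.027 to 0.17 for SLX4, -0.12 to 0.12 for ERCC4, -0.25 to 0.18 for FAN1, -0.20 to 0.034 for BRCA1, -0.038 to 0.020 for FANCD2 and -0.033 to 0.054 for FANCI. Without a change of sign, it ran from 0.24 to 0.68 for EME1, 0.064 to 0.37 for CENPX, 0.17 to 0.37 for UBE2T, 0.031 to 0.12 for USP1, 0.0014 to 0.069 for REV1, -0.27 to -0.046 for FANCM, -0.44 to -0.068 for ATRIP, -0.39 to -0.023 for RMI1, -0.36 to -0.17 for SLX1B, -0.35 to -0.17 for RAD51C, -0.29 to -0.12 for POLK, -0.22 to -0.074 for BRCA2 and -0.10 to -0.044 for FANCA. The cause of the other 19 reversals was not tested. With 2 libraries a group, changes smaller than the members' intervals could not be detected.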

Other observations

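Pseudogene copies of PMS2 were read beside PMS2 itself, a choice made after their values were seen. PMS2P1 had FPKM of 3.94 and 3.63 in DMSO and 5.55 and 6.03 in SF1-8, with both SF1-8 libraries above both DMSO libraries. Its log2 fold change was 0.64 (SE 0.0991, unadjusted p 0.00121, adjusted p 0.471, edgeR), so it did not pass the adjusted threshold. PMS2P10 had 2.20 and 2.16 in DMSO and 2.84 and 3.18 in SF1-8, and PMS2P4 had 1.68 and 2.12 in DMSO and 2.30 and 2.53 in SF1-8, the same order. PMS2CL went the other way in its log2 fold change (-0.32, SE 0.238), with 2.59 and 1.64 in DMSO and 1.47 and 1.83 in SF1-8, where the groups overlapped. PMS2P7 also had a negative value (-0.70, SE 0.41), with 1.11 and 0.666 in DMSO and 0.665 and 0.396 in SF1-8, both SF1-8 libraries being lower. PMS2P6 was low, with 0.477 and 0.299 in DMSO and 0.633 and 0.579 in SF1-8, both SF1-8 libraries being higher (log2 fold change 0.66, SE 0.557). PMS2P2 and PMS2P5 were at 1.53 FPKM or less in each library, with overlapping groups. How reads were divided among PMS2 and these copies is not given in the sources used here.

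DCLRE1B, a nuclease of crosslink repair from the list outside the rule, had FPKM of 4.57 and 8.27 in DMSO and 2.02 and 5.61 in SF1-8. In both groups the second library was the higher one, the groups overlapped, and the log2 fold change was -0.74 (SE 0.542).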
